A study of Rattus norvegicus with 63 samples.

Results

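Piperonylbutoxide (PBO) is a methylenedioxyphenyl compound that is added to insecticides because it blocks the cytochrome P450 enzymes with which insects break them down. In rodent liver it is known as an inducer of drug-metabolising enzymes and as a liver tumour promoter that does not damage DNA. The data described here are the miRNA arrays of the 3 rats given PBO and of the 3 vehicle rats of methylcellulose (MC) control set 5, to which the sample labels assign them. These 6 arrays are part of a series of 63 arrays of rat liver, 1 per rat, and were chosen by the sample titles and the control set alone.

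The PBO rats were young adult male Wistar Hanover rats that received 1200 mg/kg/d by gavage for 3 days. The control rats, numbered 7, 8 and 9, were of the same strain and sex and received only the vehicle by gavage. The labels give 14 days for them, whereas the methods of the study describe control groups matched for time. Labels and methods name methylcellulose as the vehicle of such controls, and the methods list carboxymethyl cellulose as that of PBO. Per the methods, 3 rats with at least some liver change by histopathology were selected from each larger treatment group for the arrays. Control groups were of equal size. Phenobarbital (PB, 14 days, with MC set 6), ethionine (ETH, 200 mg/kg/d for 14 days) and diethylstilbestrol (DES, 10 mg/kg/d for 3 days) served for comparison, and the labels give ETH and DES the same control set 5 as PBO.

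miRNAs are short RNAs that bind messenger RNAs through bases 2 to 8 of their own sequence, the seed, and thereby lower the output of many genes at once. miRNAs with the same seed form a family, and neighbouring miRNA genes are often transcribed together as a cluster. In liver, miR-122 is by far the most abundant miRNA and marks hepatocytes. The miR-200 family marks epithelial cells, in liver mainly those of the bile ducts. The miR-29 family is known for lowering collagen genes, and the miR-15, miR-16, miR-195 and miR-497 family for restraining the cell cycle. As whole liver was measured, fewer cells of a type and less of an miRNA per cell cannot be told apart.

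The sequences of the miRNAs on which the results turn are shown by family, in RNA letters from 5′ to 3′, with the seed in capitals. They were read from the RefSeq table for the rat build GRCr8, which matched all 21 names looked up. That table held no mature sequence of miR-200b, miR-200a and miR-429, so these were not looked up and are not shown.

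The miR-29 family is shown because 2 of its 3 members rose while the third, which differs from miR-29c by 1 base, was not called.
miR-29b: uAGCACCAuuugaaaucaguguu
miR-29c: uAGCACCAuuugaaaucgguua
miR-29a: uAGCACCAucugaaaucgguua

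miR-107 and miR-103 share a seed and differ by 1 base over 23 bases, and only the signal of miR-107 was called.
miR-107: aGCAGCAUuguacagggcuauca
miR-103: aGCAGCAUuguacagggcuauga

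Of the miR-200 family, only the members from a cluster on another chromosome than miR-200b, miR-200a and miR-429 are shown. They were not called.
miR-200c: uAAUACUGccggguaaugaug
miR-141: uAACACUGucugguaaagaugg

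miR-96 and let-7d were called higher and share no seed with each other or with those above.
miR-96: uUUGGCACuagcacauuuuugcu
let-7d: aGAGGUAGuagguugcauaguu

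Among the miRNAs called lower, miR-195 and miR-497 carry the same seed as miR-16 and miR-15b, which were not called.
miR-195: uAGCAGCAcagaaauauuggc
miR-497: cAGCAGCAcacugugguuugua
miR-16: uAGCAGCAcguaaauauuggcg
miR-15b: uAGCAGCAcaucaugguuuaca

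miR-19b, miR-192, miR-125b-5p and miR-23b were called lower and have a different seed each. miR-19a is shown with miR-19b because both differ by 1 base over 23 bases.
miR-19b: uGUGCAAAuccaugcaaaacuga
miR-19a: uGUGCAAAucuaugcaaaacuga
miR-192: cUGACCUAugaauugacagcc
miR-125b-5p: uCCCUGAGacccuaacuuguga
miR-23b: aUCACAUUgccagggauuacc

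Before the results, 3 properties of these 6 arrays have to be stated. All 6 were scanned on the same scan day. The 3 PBO arrays lay on slide 6 together with control arrays 8 and 9, and control array 7 lay on slide 5. The PBO arrays were dimmer at the bright end. Their brightest spot reached 24917, 15564 and 16244 units against 41768, 41978 and 43643 units for the controls, while the median spot brightness was similar, with 145.5 to 149 units for PBO and 148 to 152 units for the controls. On the PBO arrays 97, 96 and 101 miRNAs were detected and on the control arrays 107, 114 and 114, so that the groups did not overlap. Within a group, the deviations of the arrays from the mean of each miRNA correlated with r from 0.599 to 0.833 for PBO and from 0.307 to 0.766 for the controls, across 162 miRNAs that share the arrays.

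The authors also deposited a table of normalized log2 values, and its columns did not all follow the arrays of the same label. Over the 71 miRNAs detected on all arrays, the columns of the PBO rats correlated best with their own arrays (r from 0.871 to 0.913, after the mean of each miRNA was subtracted). The 3 columns of control set 5 correlated with their own arrays at only 0.248, 0.654 and 0.302, but with the arrays filed as MC set 2 at 0.864, 0.871 and 0.907. Likewise the DES columns matched arrays that are filed as dehydroepiandrosterone (DHEA), with r from 0.95 to 0.964. Which of the assignments is right could not be settled from the files. The results below use the arrays as filed, and counts with the other assignment are given beside them. Between rats without compound, of 162 miRNAs, 0 were called between MC set 5 and MC set 2 in limma (0% called, 1 at an unadjusted p under 0.05), and 0 between MC set 5 and MC set 1 (16 at an unadjusted p under 0.05).

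In the livers of the PBO rats, 8 of 162 tested miRNAs were higher than in the controls (4.94% called) and 6 were lower (3.7% called). A call required a limma p-value under 0.05 after Benjamini-Hochberg adjustment over all 162, and 44 miRNAs had an unadjusted p under 0.05. The miRNAs called higher were miR-29b and miR-29c, the clustered miR-200b, miR-200a and miR-429, and miR-107, let-7d and miR-96. Those called lower were miR-19b, the clustered miR-195 and miR-497, miR-125b-5p, miR-192 and miR-23b. The changes were small on the scale used, from a log2 fold change of 0.78 for miR-29b to -0.36 for miR-19b. All 3 PBO rats lay beyond all 3 controls for each of these 14 miRNAs, as they did above for 16 (9.88%) and below for 34 (21%) of all 162. With the value table's assignment of arrays, 8 were called higher, of which 7 were among the 8 above, and 17 lower, of which 4 were among the 6. The value table called 7 higher and 25 lower, with a median log2 fold change over all its miRNAs of -0.12 in place of -0.01, and the 75th percentile of detected probes 10 higher and 12 lower. Within slide 6 alone, which is the same comparison as leaving out control 7, 9 were called higher and 7 lower, all 14 among them. The count of lower calls moved with single rats, to 2 without PBO rat 2 and to 3 without PBO rat 3, control 8 or control 9, and a model of these 6 arrays alone called 5 higher and 3 lower.

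**Figure D1:**
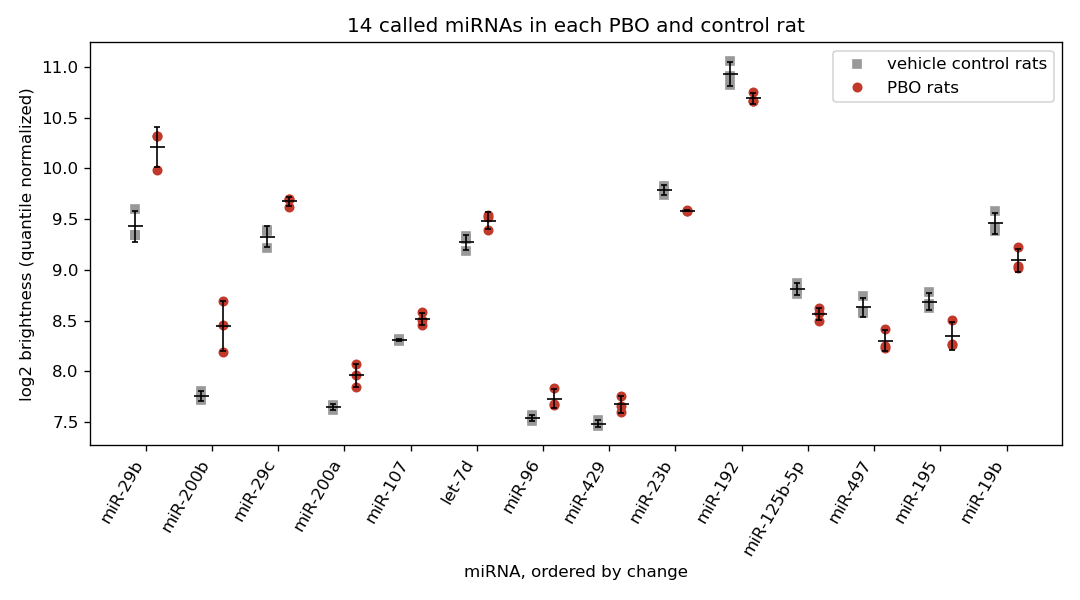
Log2 brightness after quantile normalization (y axis) of the 14 called miRNAs (x axis, ordered by change) in each rat. Grey squares are the 3 control rats, red circles the 3 PBO rats, and black bars the mean with its SD. For miR-29b the PBO rats sit between 9.98 and 10.32 and the controls between 9.34 and 9.60, and for none of the 14 do the groups overlap.

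The values are log2 brightness without background subtraction, so that a miRNA at the background has a value near 7.4 and fold changes of dim miRNAs are drawn towards 1. For this reason the change under other scalings is given beside dim miRNAs. If no array of 1 of the groups had a miRNA well above background, such a change rests on signals at the background and is no measured fold. Of the 162 miRNAs, 59 were well above background in none of the 6 rats.

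miR-200b, miR-200a and miR-429 lie within 1908 bases of each other at chr5:171929682-171931589 (GRCr8, minus strand), inside the span that RefSeq gives for Ttll10. miR-200b read 8.19, 8.46 and 8.69 in the PBO rats and 7.81, 7.72 and 7.73 in the controls. All PBO rats were higher, with a wider spread than the controls. The mean of 8.45 ± 0.25 (SD, n = 3) against 7.75 ± 0.05 gave a change of 0.69 log2 units (SE 0.09, adjusted p = 5.20e-07 in limma), or 1.62-fold. With background subtracted in the processed signal and scaling to the 75th percentile of detected probes, the log2 fold change was 2.01, and in the value table it was 2.07. In the value table the PBO rats had 6.66, 7.27 and 7.68 and the control columns 5.20, 5.11 and 5.09.

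For miR-200a the PBO rats had 7.85, 7.96 and 8.07 and the controls 7.67, 7.62 and 7.66. The order of the 3 PBO rats was the same as for miR-200b. The change was 0.31 log2 units (SE 0.05, adjusted p = 9.87e-06 in limma), and 1.30 with the 75th percentile of detected probes. miR-429 read 7.60, 7.66 and 7.76 against 7.52, 7.46 and 7.47, a log2 fold change of 0.19 (adjusted p = 9.87e-06 in limma). It was well above background on 2 of the 3 PBO arrays and on 0 of the 3 control arrays. Its value, 1.14-fold higher, thus sets PBO signals against control signals at the background and is no lower bound. miR-429 was called higher under those scalings too, with values (1.86 with the 75th percentile of detected probes and 1.20 in the value table) that rest on control signals at the background.

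The other 2 members of the family come from a cluster at chr4:159209525-159210033 (GRCr8, minus strand) and were not called. miR-200c read 7.50, 7.44 and 7.41 in the PBO rats and 7.51, 7.62 and 7.59 in the controls. Its log2 fold change was -0.12 (adjusted p = 0.144 in limma), and it was well above background in 0 of 3 PBO rats and 2 of 3 controls. With the other scalings, which set PBO signals at the background against the controls, miR-200c had larger negative values that were not called either, -1.42 with the 75th percentile of detected probes (adjusted p = 0.118), -1.39 with that of all probes (0.174) and -0.77 in the value table (0.164). For miR-141 the log2 fold change was -0.06 (adjusted p = 0.223), and it was not well above background in any of the 6 rats. It therefore has no measured change, and it was not called with the same 3 scalings either. Thus 3 of 5 family members were called higher and none was called lower (4.94% and 3.7% of the 162), with a median log2 fold change of 0.19 where that of all 162 was -0.01. The summed brightness of the 5 was 1071, 1153 and 1241 in the PBO rats and 971, 966 and 964 in the controls, with miR-200b the brightest. Such sums, here and below, include the background signal of each miRNA.

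**Figure D2:**
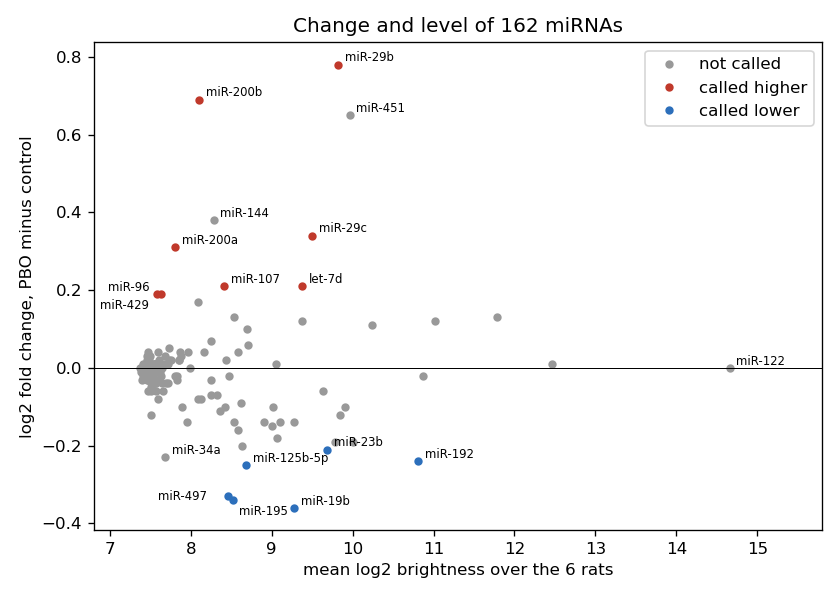
Log2 fold change of PBO over control (y axis) against the mean log2 brightness over the 6 rats (x axis) for 162 miRNAs. Red points are called higher, blue points lower and grey points not called. miR-29b at 0.78 and miR-200b at 0.69 stand highest, and miR-451 at 0.65, where the groups overlap, is not called.

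The miR-29 family comes from a pair of clusters, miR-29b-1 with miR-29a at chr4:60617955-60618414 and miR-29b-2 with miR-29c at chr13:109098831-109099446 (GRCr8). Mature miR-29b is made by both. It read 9.98, 10.32 and 10.32 in the PBO rats and 9.34, 9.60 and 9.34 in the controls. The lowest PBO rat was above the highest control. The mean of 10.21 ± 0.20 (SD, n = 3) against 9.43 ± 0.15 gave a change of 0.78 log2 units (SE 0.13, adjusted p = 2.12e-05 in limma), or 1.72-fold. This was the largest value of the 162 on the scale without background subtraction, but with the 75th percentile of detected probes and in the value table the values of miR-200b, miR-200a, miR-429 and miR-96 were larger. Its log2 fold change was 0.97 with the 75th percentile of detected probes and 0.82 in the value table.

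miR-29c had 9.62, 9.70 and 9.70 in the PBO rats and 9.21, 9.39 and 9.38 in the controls. The change was 0.34 log2 units (SE 0.07, adjusted p = 0.000445 in limma). With the 75th percentile of all probes miR-29c was not called (0.28, adjusted p = 0.379). miR-29a read 10.28, 10.30 and 10.29 against 10.13, 10.23 and 10.17. Its groups did not overlap either, but the change of 0.11 log2 units (SE 0.08) did not pass the test (adjusted p = 0.444 in limma). Of 5 tested family members, passenger strands included, 2 rose and none was called lower, against 4.94% and 3.7% of the 162. Whether the probes of miR-29c and miR-29a, which differ in 1 base, also read each other was not tested.

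miR-107 and let-7d rose with smaller changes. The gene of miR-107 at chr1:241750418-241750504 lies inside the span of Pank1, which encodes a pantothenate kinase of coenzyme A synthesis. miR-107 read 8.58, 8.51 and 8.46 against 8.31, 8.30 and 8.32, so that the controls varied less than the distance to the nearest PBO rat. The change was 0.21 log2 units (SE 0.05, adjusted p = 0.00179 in limma). With the 75th percentile of all probes miR-107 was not called (0.25, adjusted p = 0.388). Its near relative miR-103 had 8.02, 7.98 and 7.97 in the PBO rats and 8.01, 7.98 and 8.00 in the controls, a change of 0.00 log2 units (SE 0.03, adjusted p = 0.954). The difference between both was not tested.

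let-7d belongs to the let-7 family, which is known for keeping cells differentiated. It had 9.54, 9.52 and 9.39 in the PBO rats and 9.33, 9.19 and 9.30 in the controls, with a change of 0.21 log2 units (SE 0.06, adjusted p = 0.0274 in limma). This call was lost when PBO rat 1 (adjusted p = 0.103), PBO rat 2 (0.118), control 8 (0.179) or control 9 (0.0554) was left out, and with the value table's assignment of arrays (0.102). It was also lost in the value table (0.317) and with the 75th percentile of detected (0.0681) or all probes (0.769). The same held without a detection filter (0.0544) and in a model of these 6 arrays alone (0.0881). Of the 8 tested members of the let-7 family it was the only one called, where 4.94% of all 162 were called higher. The median log2 fold change of the 8 was -0.01. The brightest, let-7f, read 11.22, 11.02 and 11.02 against 10.99, 10.91 and 10.99 (log2 fold change 0.12, adjusted p = 0.26).

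miR-96 is transcribed with miR-182 and miR-183, which were not detected on any array and so were not tested. It read 7.67, 7.68 and 7.84 in the PBO rats and 7.54, 7.51 and 7.57 in the controls. The change was 0.19 log2 units (SE 0.05, adjusted p = 0.00499 in limma), and without PBO rat 3, the highest, it was 0.14 with an adjusted p of 0.109. miR-96 was well above background in 3 of 3 PBO rats and in 0 of 3 controls. It was 1.14-fold higher against control signals at the background, so that this is no lower bound. It was called higher with the other scalings too, at 1.54 with the 75th percentile of detected probes, 1.42 with that of all probes and 1.03 in the value table, values that rest on control signals at the background.

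**Figure D3:**
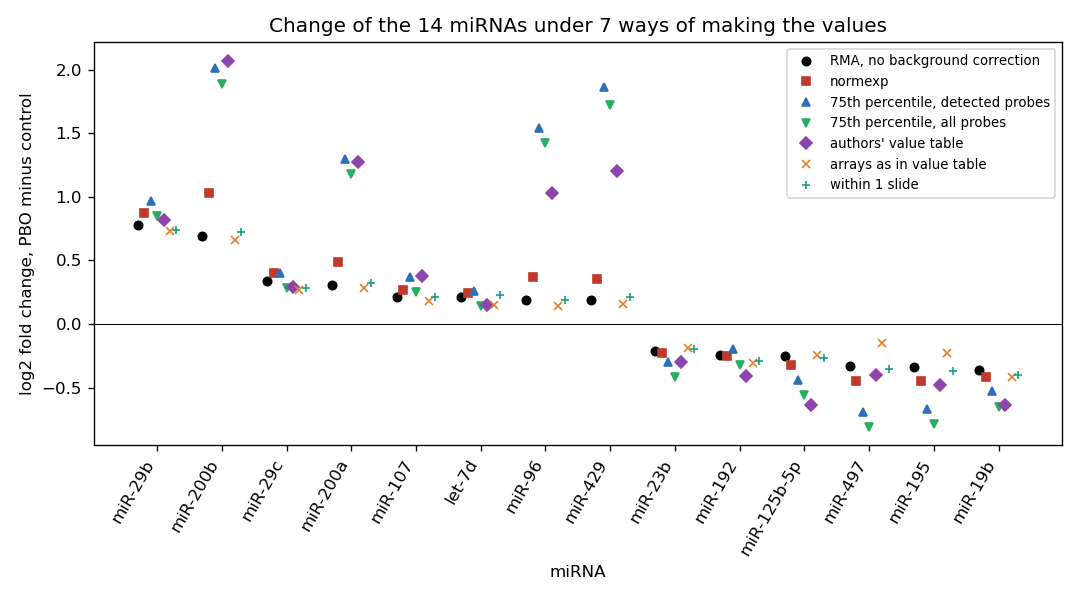
Log2 fold change of PBO over control (y axis) of the 14 called miRNAs (x axis) under 7 ways of making the values, 1 symbol each. The 3 members of the miR-200b cluster and miR-96 spread widely, miR-200b from 0.66 with the value table's assignment of arrays to 2.07 in that table, whereas miR-29b stays between 0.73 and 0.97, and no miRNA crosses 0.

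Of the 6 miRNAs that fell, miR-195 and miR-497 lie within 411 bases at chr10:55450171-55450581 (GRCr8) and carry the same seed. miR-195 read 8.51, 8.27 and 8.26 in the PBO rats and 8.62, 8.78 and 8.66 in the controls. PBO rat 1 was nearest to the controls. The change was -0.34 log2 units (SE 0.11, adjusted p = 0.0274 in limma). miR-497 had 8.42, 8.25 and 8.23 against 8.58, 8.74 and 8.57, with the same order of the PBO rats and a change of -0.33 log2 units (SE 0.09, adjusted p = 0.0118 in limma).

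Both calls depended on which arrays served as controls. With the value table's assignment of arrays, the log2 fold change was -0.23 for miR-195 (adjusted p = 0.121) and -0.15 for miR-497 (adjusted p = 0.241). Leaving out PBO rat 2, PBO rat 3 or control 8 also ended both calls, with adjusted p-values of 0.125, 0.157 and 0.16 for miR-195 and of 0.0625, 0.0745 and 0.123 for miR-497, and for miR-195 leaving out control 9 did so too (0.0581). miR-16 of the same family had 9.34, 9.44 and 9.52 in the PBO rats and 9.31, 9.24 and 9.38 in the controls, and its log2 fold change of 0.12 did not pass the test (adjusted p = 0.474). For miR-15b the log2 fold change was 0.02 (adjusted p = 0.853). Of the 5 tested family members 2 fell and none was called higher, against 3.7% and 4.94% of the 162.

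miR-19b, of the miR-17 to miR-92 clusters that are known for promoting proliferation, had the largest negative log2 fold change on the scale without background subtraction. With the 75th percentile of detected probes the value of miR-19b was -0.53. Larger negative values there were those of miR-200c (-1.42), miR-34a (-1.27), miR-141 (-0.81), miR-497 (-0.69), miR-195 (-0.67), miR-219-5p (-0.57) and miR-122 (-0.55). Those of miR-141 and miR-219-5p rest on signals at the background in both groups. For miR-200c and miR-34a the PBO signals were at the background. miR-19b read 9.22, 9.04 and 9.02 in the PBO rats and 9.38, 9.58 and 9.41 in the controls. The groups were apart by 0.16 log2 units. Its log2 fold change was -0.36 (SE 0.08, adjusted p = 0.0022 in limma) and stayed called with the other assignment of the arrays. The other tested members did not pass the test, with miR-92a at -0.20 (adjusted p = 0.0515) and miR-19a at -0.14 (adjusted p = 0.0961), and 1 of 6 was called (3.7% of the 162 were called lower). miR-92a was called lower with normexp, with both 75th percentile scalings and in the value table, and miR-19a in the value table and with the 75th percentile of detected probes. All 6 had negative log2 fold changes, from -0.36 to -0.01, as did 97 of all 162 (59.9%).

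miR-192, which marks hepatocytes and intestinal epithelium, had 10.75, 10.66 and 10.66 against 10.82, 11.06 and 10.91. PBO rat 1 was 0.07 log2 units under the lowest control. The change was -0.24 log2 units (SE 0.07, adjusted p = 0.0172 in limma), and the call was lost without PBO rat 2 (adjusted p = 0.0774), PBO rat 3 (0.0745) or control 8 (0.179). It was also lost with the 75th percentile of detected probes (0.189) or of all probes (0.272) and in a model of these 6 arrays alone (0.103). Its cluster partner miR-194 read 9.10, 9.01 and 8.98 against 9.05, 9.29 and 9.17, overlapped and was not called (log2 fold change -0.14, adjusted p = 0.15). It was called lower in 4 of 19 alternatives, with the value table's assignment of arrays (-0.22, adjusted p = 0.0195), in the value table (-0.39, 0.0356), with slide as a fixed block (-0.20, 0.0287) and with MC sets 1, 2 and 5 pooled (-0.18, 0.0124).

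miR-125b-5p, a miRNA known for lowering apoptosis and differentiation genes, had 8.57, 8.50 and 8.62 in the PBO rats and 8.76, 8.87 and 8.80 in the controls. Its log2 fold change was -0.25 (SE 0.08, adjusted p = 0.0274 in limma), and leaving out PBO rat 1 (adjusted p = 0.052), PBO rat 2 (0.131), control 8 (0.16) or control 9 (0.0622) ended the call. It was also lost with the 75th percentile of detected probes (-0.44, adjusted p = 0.142) or of all probes (-0.56, 0.122), and without a detection filter (0.0544). miR-23b read 9.59, 9.58 and 9.58 against 9.79, 9.74 and 9.83. The PBO rats hardly varied. The change was -0.21 log2 units (SE 0.05, adjusted p = 0.00934 in limma). The call was lost without control 9 (adjusted p = 0.0581) and with the 75th percentile of all probes (-0.42, 0.0933). Its cluster partners miR-27b, at -0.14 (adjusted p = 0.148), and miR-24, at -0.10 (adjusted p = 0.2), were not called.

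The most abundant miRNA, miR-122, needs other values. It was the brightest on all 63 arrays, and after quantile normalization, which gives every array the same set of values, it read 14.66 or 14.67 in all 6 rats and 14.21 to 14.70 over the 63 arrays. In the processed signal before normalization, its mean per spot was 17617, 10590 and 10899 units in the PBO rats and 28028, 28093 and 30251 in the controls. The whole array was also dimmer, as the summed processed signal was 807000, 575000 and 605000 units for PBO and 1153000, 1184000 and 1222000 units for the controls, rounded. As a share of that sum within each array, which needs no scaling between arrays, miR-122 took 43.7%, 36.8% and 36% in the PBO rats and 48.6%, 47.5% and 49.5% in the controls. Mean shares were 38.8% ± 4.21 and 48.5% ± 1.03 (SD, n = 3). The groups did not overlap, and an exact two-sided permutation test gave p = 0.1, the smallest that 3 against 3 rats allow. The shares of the 3 rats of MC set 2 were 47.1% to 49.9%, those of MC set 6 48.1% to 49.9% and those of MC set 1 43.7% to 48.8%. The lowest rat of MC set 1 was thus level with PBO rat 1. The log2 fold change was -0.55 with the 75th percentile of detected probes (adjusted p = 0.000157 in limma), -0.67 with that of all probes (adjusted p = 0.00406) and -0.62 in the value table (adjusted p = 3.74e-05). A lower share of miR-122 within an array is also a higher share of all others, so that it does not show which of them changed.

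Among the markers of leukocytes, red blood cells and stellate, smooth muscle and endothelial cells, none was called. Of the 5 tested leukocyte miRNAs, 0 were called, against 8.64% of all 162. Their summed brightness was 1247, 1285 and 1378 in the PBO rats and 1309, 1316 and 1291 in the controls, with miR-142-3p the brightest. miR-142-3p read 8.60, 8.64 and 8.96 against 8.67, 8.70 and 8.66 (log2 fold change 0.06, adjusted p = 0.808), and its sign changed with the 75th percentile of all probes and in the value table. For miR-223, of neutrophils, the log2 fold change was 0.03 (adjusted p = 0.808), and for miR-146a it was -0.08 (adjusted p = 0.58). miR-142-5p and miR-150 were well above background in 0 of 3 PBO rats and 3 of 3 controls. Fewer miRNAs of any kind were well above background on the PBO arrays, with 81, 79 and 81 against 95, 99 and 98 on the control arrays. miR-142-5p had a log2 fold change of -0.01 (adjusted p = 0.808) with overlapping groups, and its sign changed with the 75th percentile of detected probes. miR-150 had -0.06 (adjusted p = 0.0881) and was called lower in 5 of 19 alternatives, among them the value table with -0.58 (adjusted p = 0.00539).

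The erythroid miRNAs miR-451 and miR-144, which mark red blood cells, varied most among the PBO rats. miR-451 had 9.75, 10.11 and 11 in the PBO rats and 10.04, 9.32 and 9.55 in the controls. PBO rat 3 stood above the rest. The change of 0.65 log2 units (SE 0.35) did not pass the test (adjusted p = 0.223 in limma). miR-144 had 8.15, 8.35 and 8.92 against 8.20, 8.03 and 8.05 (log2 fold change 0.38, adjusted p = 0.111), with the same order of the PBO rats. Leaving out 1 rat moved miR-451 between 0.29 and 0.92 and miR-144 between 0.15 and 0.54, the lowest without PBO rat 3 in both. miR-451 was called in 0 of 19 alternatives. miR-144 was called higher in 3, with all MC rats pooled (0.31, adjusted p = 0.0454), with MC sets 1, 2 and 5 pooled (0.35, 0.0271) and without PBO rat 1 (0.54, 0.023). The summed brightness of both was 1146, 1433 and 2533 in the PBO rats and 1350, 901 and 1018 in the controls. This order, with rat 3 highest and rat 1 lowest, also held for miR-200b, miR-200a, miR-429 and miR-96. Without PBO rat 3, miR-200b still had a log2 fold change of 0.57, and 8 miRNAs were called higher and 3 lower. The part of blood in the other changes was not tested.

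Of the 6 tested miRNAs of stellate, smooth muscle and endothelial cells, 0 were called, against 8.64% of all 162. The brightest, miR-126 of the endothelium, read 9.18, 9.27 and 9.19 against 9.29, 9.35 and 9.41 (log2 fold change -0.14, adjusted p = 0.136), and miR-143 of smooth muscle had -0.16 (adjusted p = 0.0743). In the value table both were called lower, miR-126 at -0.30 (adjusted p = 0.0229) and miR-143 at -0.38 (0.0226), and miR-143 was so with normexp and with both 75th percentile scalings too. The summed brightness of the 6 was 1741, 1822 and 1734 in the PBO rats and 1836, 1825 and 1926 in the controls.

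miR-34a, a target of p53 that rises after DNA damage, read 7.55, 7.63 and 7.53 in the PBO rats and 7.77, 7.73 and 7.88 in the controls. The PBO rats were lower without overlap, but the change of -0.23 log2 units (SE 0.12) did not pass the test (adjusted p = 0.223 in limma). It was well above background in 0 of 3 PBO rats and 3 of 3 controls. Its value, 1.17-fold lower with PBO, thus rests on PBO signals at the background. It was called with the 75th percentile of detected probes (-1.27, adjusted p = 0.00266) and of all probes (-1.39, adjusted p = 0.00524). miR-21, which rises in liver injury and growth, was bright and overlapped, with 12.40, 12.49 and 12.53 against 12.38, 12.48 and 12.53. Its log2 fold change was 0.01 (SE 0.08, adjusted p = 0.947) and its sign changed with the scaling. miR-93, of a cluster linked to proliferation, was at 7.59, 7.55 and 7.58 against 7.58, 7.54 and 7.57 (log2 fold change 0.01, adjusted p = 0.768).

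In all, 23 lists of families, clusters and cell types were described, and 13 of them had no called member. Besides those above these were the miR-34 family (3 tested, median log2 fold change -0.01), miR-21 with its passenger strand (2 tested, 0.00), the miR-106b, miR-93 and miR-25 cluster (3 tested, 0.01), miR-193 and miR-365 (3 tested, 0.01), miR-26 and miR-101 (4 tested, -0.15), the miR-30 family (9 tested, -0.06), the miR-181 family (1 tested, -0.04), the miR-139 arms (2 tested, 0.01), miR-221 and miR-222 (1 tested, -0.05) and the Dlk1-Dio3 imprinted cluster (3 tested of 43 on the array, 0.01). In miR-26 and miR-101, linked to restraint of liver tumours, all 4 had negative values from -0.19 to -0.11 and none passed the test. Of the 4, 3 were called lower in the value table, miR-26a at -0.48 (adjusted p = 0.000351), miR-26b at -0.26 (0.0226) and miR-101a at -0.35 (0.0251), and with the 75th percentile of detected probes miR-26a alone. Of the 13 lists without a call, 6 had members in the value table that were called lower, 9 in all, among them miR-181a (-0.36, adjusted p = 0.0226), miR-221 (-0.46, 0.0226) and miR-30b-5p (-0.47, 0.0426), and none had a member called higher. Over all its 135 miRNAs, the value table also had many more lower calls than the values reported, as given above. Whether these lists held more of them than the rest was not tested. The remaining lists with calls were miR-103 and miR-107 (1 of 2 higher), the hepatocyte miRNAs (1 of 3 lower), the miR-23, miR-24 and miR-27 clusters (1 of 6 lower) and the miR-99, miR-100 and miR-125 families (1 of 6 lower). Of all 162 miRNAs, 4.94% were called higher and 3.7% lower. No list held members called in both directions. In the hepatocyte list, quantile normalization left miR-122 hardly any room to vary, as described above. It was called lower with both 75th percentile scalings, and in the value table all 3 hepatocyte miRNAs tested were called lower.

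PB is, like PBO, known as an inducer of drug-metabolising enzymes that acts without DNA damage, and the comparison asks where the responses to both differ. Its own control set 6 shares no rat with that of PBO. PB was given for 14 days at a dose that is stated in the methods of the study and not in the labels. Of the PB arrays, 2 were scanned on day 1 and 1 on day 3, those of MC set 6 on day 1 and those of PBO on day 2, so that times, doses and scan days differed. The PB arrays lay on slides 1 and 9 and those of MC set 6 on slide 2, so that no slide held both. With PB, 5 miRNAs were called (3.09% of 162), 4 of them higher (2.47%) and 1 lower (0.617%). The 4 were miR-200b, miR-200a, miR-429 and miR-96, all of which were also called higher with PBO. These are 28.6% of the 14 calls with PBO and 80% of the 5 calls with PB.

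The values with PB were 0.48 for miR-200b (SE 0.09, adjusted p = 0.000887 in limma), 0.23 for miR-200a (adjusted p = 0.00294), 0.15 for miR-429 (adjusted p = 0.000887) and 0.19 for miR-96 (adjusted p = 0.00929), as log2 fold changes. The change with PBO minus that with PB was 0.21 for miR-200b (95% interval -0.06 to 0.47) and 0.09 for miR-200a (-0.06 to 0.23). Leaving out 1 rat moved the difference for miR-200b between 0.04 (without PB rat 2) and 0.34 (without PBO rat 1), with 0.09 without PBO rat 3 and 0.32 without PB rat 3. For miR-200a it moved between 0.00 (without PB rat 2) and 0.16 (without PB rat 3), with 0.03 without PBO rat 3 and 0.14 without PBO rat 1. For miR-429 (0.04, -0.05 to 0.12) and miR-96 (0.00, -0.14 to 0.14) the difference is between values drawn towards 0, since neither was well above background in any control of MC set 5. With the 75th percentile of detected probes the difference was 0.49 for miR-429 and -0.32 for miR-96, with that of all probes 0.35 and -0.46, and in the value table it was 0.10 and -0.48, and none of these was called. These intervals include 0, which does not show that the compounds act alike. With slide as a fixed block the differences were -0.16 for miR-200b, -0.12 for miR-200a and -0.02 for miR-429, and none of the 3 was called.

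For miR-29b the change with PB was 0.17 (adjusted p = 0.651), and the difference of 0.61 had an interval of 0.23 to 0.99. Of the 162 differences 0 passed the test (0% called, 17 at an unadjusted p under 0.05), and the smallest adjusted p was 0.103. It was reached by miR-29b and by miR-23b (difference -0.26, interval -0.42 to -0.11), miR-192 (-0.32, -0.51 to -0.12) and miR-107 (0.21, 0.08 to 0.35). With all MC rats pooled, miR-29b (0.63) and miR-192 (-0.31) were called (adjusted p = 0.00182 in limma for each). With MC sets 1, 2 and 5 pooled, miR-192 and miR-23b were called (0.0404 for each). With only the groups compared, miR-23b was called (0.0183). Across the 162 miRNAs, the changes with both compounds correlated with r = 0.466 (Pearson) and 0.248 (Spearman) and had the same sign in 59.3%, as a description of miRNAs that share arrays. The 14 miRNAs called with PBO had the same sign with PB for 10.

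**Figure D4:**
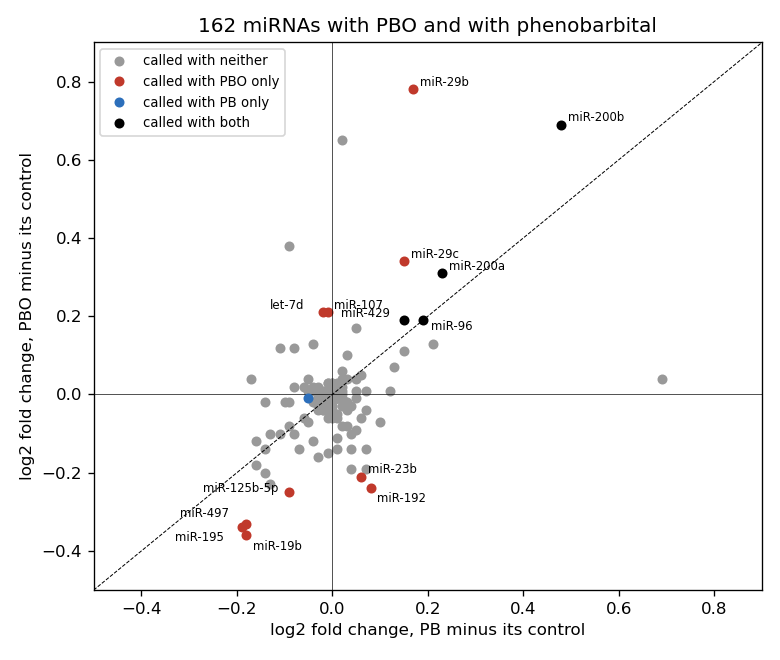
Log2 fold change with PBO (y axis) against that with PB (x axis), each against its own control set, for 162 miRNAs. Red points are called with PBO only, the blue point with PB only, black points with both and grey points with neither, and the dashed line marks equal change. The 4 black points, miR-200b, miR-200a, miR-429 and miR-96, lie right of 0.15 on the x axis or at it, and miR-29b lies high above the line.

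ETH and DES name the same controls as PBO, so PBO was compared with them directly and the controls cancel. Against ETH, an ethyl analogue of methionine, 25 miRNAs were higher with PBO (15.4% called) and 20 lower (12.3% called) of 162, together 27.8%. The rankings here and for DES below are among called miRNAs on the scale without background subtraction. The largest higher values were those of miR-29b (difference 0.65, adjusted p = 0.000137 in limma), miR-29c (0.50, adjusted p = 3.01e-07) and miR-200b (0.49, adjusted p = 5.32e-05). With the 75th percentile of detected probes and in the value table, miR-200b (0.99 and 1.34) stood above miR-29b (0.74 and 0.76). The largest lower values were those of miR-34a (-2.11, adjusted p = 4.88e-19), miR-19b (-0.81, adjusted p = 2.02e-10) and miR-101b (-0.38, adjusted p = 0.00691), whose call was lost without ETH rat 2 (-0.30, adjusted p = 0.0771). No PBO rat had miR-34a well above background, while its mean with ETH was 9.68. The 4.31-fold lower value with PBO thus rests on PBO signals at the background. Against their shared controls, miR-34a changed by -0.23 log2 units with PBO and 1.89 with ETH, and that of miR-19b -0.36 and 0.45. All ETH arrays lay on slide 7 and all PBO arrays on slide 6. With slide as a fixed block, 0 were called higher and 2 lower, and these were miR-34a (-2.13, adjusted p = 8.14e-05) and miR-19b (-1.12, adjusted p = 0.00437). The differences there were 0.36 for miR-29b, 0.23 for miR-29c, 0.44 for miR-200b and -0.77 for miR-101b, none of them called.

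Against DES, a synthetic estrogen given for the same 3 days at another dose, 19 miRNAs were higher with PBO (11.7% called) and 38 lower (23.5% called), together 35.2%. The largest higher values were those of miR-451 (1.07, adjusted p = 0.0148 in limma), miR-144 (0.65, adjusted p = 0.000819) and miR-142-3p (0.57, adjusted p = 0.000171), which mark blood cells. The largest lower values were those of miR-107 (-0.68, adjusted p = 8.97e-16), miR-192 (-0.50, adjusted p = 4.39e-07) and miR-195 (-0.41, adjusted p = 0.00193). The arrays filed as DES were scanned on day 1 and those of PBO on day 2, and with scan day as a block 1 was called higher and 4 lower. The calls of miR-451 (1.01, adjusted p = 0.204), miR-144 (0.62, 0.0868), miR-142-3p (0.48, 0.0718) and miR-195 (-0.23, 0.298) were lost there, the first 3 with differences near those without the block. The call of miR-451 was also lost without PBO rat 3 (0.152) or DES rat 1 (0.115). With the arrays filed as DHEA taken as DES, the difference was 0.19 for miR-107 (adjusted p = 0.00205) and 0.16 for miR-192 (adjusted p = 0.0774), and the calls of miR-142-3p (0.16, adjusted p = 0.345) and miR-195 (-0.13, adjusted p = 0.429) were lost. The direction for both thus depends on which arrays held DES. For miR-200b and miR-200a the differences between PBO and the arrays filed as DES were 0.47 (adjusted p = 0.000163) and 0.23 (adjusted p = 0.000519). With slide as a fixed block no miRNA was called higher, so neither was called higher there. With scan day as a block, where 1 was called higher, at most 1 of them was.

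Among the 12 compounds of the series with other control sets, the 14 miRNAs differed in how often they were called. miR-200b and miR-200a were each called higher with 2 of the 12, PB and C.I. Direct Black (CIDB), and in none lower, and PBO had the largest change of the 13 compounds for both, followed by PB. miR-29b was called higher with 3 of the 12, with 0.87 for the arrays filed as DHEA, 0.84 for cyproterone acetate and 0.38 for CIDB, and PBO had rank 3. miR-107 reached 0.81 with Wy-14643, an activator of PPAR alpha, and was called lower with CIDB (-0.14). miR-23b was called lower with 5 of the 12, the most of the 14, and miR-125b-5p with 4. miR-19b was called lower with 1, cyproterone acetate (-0.28), and miR-497 with 1, dimethylnitrosamine (-0.25). Several of the 12 share control sets with each other, so these counts are not independent.

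**Figure D5:**
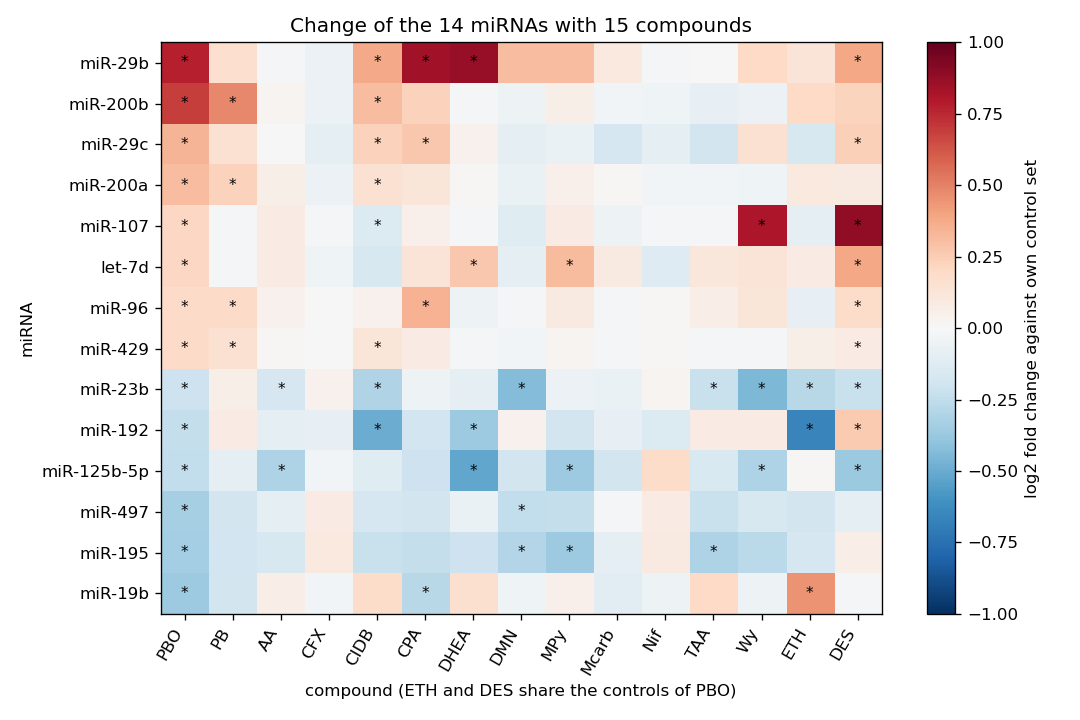
Log2 fold change (colour, red higher and blue lower than the own control set) of the 14 miRNAs called with PBO (rows) for 15 compounds (columns), with asterisks at an adjusted p under 0.05. ETH and DES, at the right, share the control rats of PBO. miR-200b and miR-200a are marked with PBO, PB and CIDB, and miR-23b with 8 compounds including PBO.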

How the data were processed

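The authors hybridized labelled liver RNA of each rat to an Agilent single-colour rat miRNA array and deposited, per the file headers, spot intensity values read by Feature Extraction 10.7.3.1, namely the mean signal, the local background and a background-subtracted processed signal, with detection marks. They also deposited a table of normalized log2 values. Its values were set beside the scanner values only.

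Values were made by RMA without background correction, the approach that the methods of the study name. As carried out here, control spots and outlier spots were left out, arrays were quantile normalized, spots of a probe averaged, log2 taken and probes combined by median polish. miRNAs detected on at least 1 of 63 arrays (162 of 350) entered a limma 3.58.1 model (R 4.3.3) of the 21 groups of the series, with Benjamini-Hochberg adjustment and a threshold of 0.05. Intervals cover 95%. The number of arrays limits the precision, and the rats of a group are separate animals. The steps were tested on simulated data. The members and lists were chosen with earlier results of these data known. Named were the called miRNAs without overlap between groups (up to 14 per direction), the most abundant miRNA, all tested members of the miR-200, miR-96, hepatocyte, leukocyte and erythroid lists, miR-34a, miR-21, miR-29b, miR-195 and miR-93, and for the differences from PB, ETH and DES the 3 called in each direction with the largest difference. Cluster partners and the brightest members of families were named beside them after their values were seen. Alternatives comprised the value table and its assignment of arrays, scaling of the processed signal to the 75th percentile, normexp with an offset of 50, other detection filters, slide or scan day as blocks, other control sets, a model of the compared groups alone, and omission of each rat. The mRNA and protein data of the study were not analysed here.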

Additional observations from a re-analysis of the deposited data

Results flagged for a closer look

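PBO and ETH, which name the same controls, differed in 45 of 162 miRNAs in limma, which is a test of the difference between their changes, and PBO and the arrays filed as DES differed in 57. In both cases the arrays compared lay on different slides. For the arrays filed as DES the scan day differed too, and the part of slide and scan day in these counts was not tested beyond the block models given below. No group held enough rats for a search for single outlying samples.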

How the results depend on the processing

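Each of the 14 miRNAs called with PBO kept its direction under all 19 alternatives, where the comparison within slide 6 and the omission of control 7 are the same and count as 1. miR-29b, miR-200b and miR-200a also stayed called under all 19, miR-29c, miR-107, miR-429 and miR-19b under 18, miR-96 and miR-23b under 17, miR-192 and miR-497 under 13, miR-125b-5p under 12, miR-195 under 11 and let-7d under 9. The number called higher was 13 with MC sets 1, 2 and 5 pooled and 5 in a model of only the groups compared, and 7 to 9 when each rat was left out in turn. The number called lower was 25 in the value table, 17 with the arrays assigned as in that table, 12 with the 75th percentile of detected probes, 10 with normexp, 13 with slide as a fixed block, 29 with all MC rats pooled, 34 with MC sets 1, 2 and 5 pooled, 3 with only the groups compared and 2 to 8 when each rat was left out. The median log2 fold change of all miRNAs was -0.01 in the values reported and -0.12 in the value table, which holds 135 of the 162. That table differs both in its normalization and in the arrays its control columns follow. The cause of these moves was not tested.

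Of single miRNAs, miR-122 changed sign in the value table (-0.62) and with the 75th percentile of detected (-0.55) or all probes (-0.67). miR-142-3p did so in the value table (-0.05), with its assignment of arrays (-0.02), with the 75th percentile of all probes (-0.11) and without PBO rat 3 (-0.06 to 0.12 over the rats left out), miR-142-5p with the 75th percentile of detected probes (0.01), and miR-223 without PBO rat 2 (-0.02 to 0.08 over the rats). miR-21 did so in the value table (-0.26), with all probes (-0.04), with slide as a block (-0.03), within slide 6 (-0.03) and without PBO rat 3 (-0.02). Apart from miR-122, none of these values was called.

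For PBO minus PB, where no miRNA was called, 1 was called higher and 10 lower with all MC rats pooled, 3 lower with MC sets 1, 2 and 5 pooled, and 1 lower with slide as a block or with only the groups compared. Leaving out each rat of PBO, MC set 5, PB or MC set 6 gave 0 calls, where the omission of PB, MC set 6, ETH and DES rats was added after the data were seen. With slide as a block the difference turned to -0.16 for miR-200b, -0.12 for miR-200a and -0.02 for miR-429. For miR-497 it turned to 0.01 in the value table and 0.02 with its assignment, and for miR-96 to 0.01 with scan day as a block, 0.05 with all MC rats pooled and 0.01 to 0.04 without PBO rat 1, PBO rat 2, control 9, PB rat 3 or rat 1 of MC set 6. For PBO minus ETH, slide as a block left 0 higher and 2 lower, only the groups compared 14 higher, and the 75th percentile of detected probes gave 40 lower. Leaving out PBO or ETH rats gave 19 to 24 higher and 15 to 22 lower.

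For PBO minus DES, the number higher was 0 with slide as a fixed block, 11 with slide as a random block, 1 with scan day as a block and 12 with only the groups compared. The number lower was 23 in the value table, 25 with its assignment, 19 and 16 with the 75th percentile of detected and all probes, 3 and 22 with slide as a fixed and a random block, 4 with scan day as a block and 21 with only the groups compared. Leaving out PBO or DES rats gave 13 to 21 higher and 21 to 39 lower, with the lowest number without PBO rat 3. For miR-192 the difference turned to 0.15 in the value table and 0.16 with its assignment, and for miR-107 to 0.41 and 0.19. No paired analysis was possible because the replicate numbers of PBO, 1 to 3, and of its controls, 7 to 9, do not overlap.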

Other observations

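Of the miRNAs with low signal, 5 were detected on all 3 control arrays and on no PBO array, miR-221, miR-331, miR-338, miR-500 and miR-872, which were picked after their values were seen. None of the 5 was called, with log2 fold changes from -0.05 for miR-221 to 0.00 for miR-872, and 0 miRNAs were detected on all 3 PBO arrays and on no control array. On all 6 arrays 89 miRNAs were detected, and 44 of the 162 on none.

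The share of miR-122 in the summed processed signal was 36% at the lowest in PBO. Between compounds and controls of the series it ranged up to 52.9%, in a rat of the corn oil set 4, and in CIDB the lowest share was 36.3%. Ranges of some other compounds overlapped that of PBO too. They were 40.4% to 43.5% for thioacetamide, 41.5% to 43.2% for Wy-14643 and 41.7% to 44.5% for the arrays filed as DES. Those of ETH, 47.9% to 50.5%, and of cefuroxime, 47.8% to 48.4%, did not overlap it.

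miR-31 read 8.32, 8.18 and 8.05 in the PBO rats and 8.06, 8.03 and 7.94 in the controls, a log2 fold change of 0.17 with an adjusted p of 0.0515 in limma, the same adjusted p as for miR-92a. It was picked after its values were seen, and its groups overlapped because PBO rat 3 read less than control 7.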
